A study of Homo sapiens with 6 samples.

Results

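The genes described here encode Golgi transferases, among them those that start mucin-type glycans and those that put outer sugars on glycan chains. They were found by symbol in the deposited table. A gene belonged if its name was one of the prefixes GALNT, FUT, ST3GAL, ST6GAL, ST6GALNAC, ST8SIA, B3GNT, B4GALT, B3GALT, B4GALNT, A4GALT or GCNT followed by nothing other than digits or the letter L, and if the table gave it a protein-coding transcript. Of 35856 genes listed, 79 met this rule, and 66 of them had enough reads to be tested. RNA was sequenced from HCCLM3, a human hepatocellular carcinoma line with high metastatic potential. In 3 libraries, called LINC00862, the cells had been transfected with a vector carrying the long noncoding RNA LINC00862. The other 3, called NC, are the controls, and the sample titles do not say what they received. They are taken here as cells given the same kind of vector left empty. The study asked which RNAs differ when LINC00862 is overexpressed. The labels give no further genotype, clone or culture for any library, so p-values measure the spread between these samples, which may be technical, and a response to LINC00862 cannot be told apart from a difference between the cultures of the 2 groups.

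Mucin-type O-glycans begin with GalNAc placed on serine or threonine by a polypeptide GalNAc transferase. Galactose or GlcNAc is then added to make a core, which other enzymes branch and lengthen with lactosamine, and fucose, sialic acid or GalNAc closes the chain. The finished caps form the H, Lewis and sialyl-Lewis antigens, while the Tn and T antigens are chains left short and uncapped. Several members act instead on glycolipids such as the gangliosides, on N-glycans or on the linker of glycosaminoglycans. The liver and its tumours are known for changes in fucosylated and sialylated glycans on secreted proteins. Most steps can be carried out by several isoenzymes, so the members are taken here by step.

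LINC00862 itself (ENSG00000203721), the check of the labels, was counted 11, 21 and 6 times in the NC libraries and 145, 121 and 76 times in the libraries labelled LINC00862. The groups did not overlap, and its log2 fold change was 3.22 ± 0.53 (SE, edgeR adjusted p = 0.000583). Its mean was 0.0507 FPKM in NC and 0.449 FPKM in LINC00862, so its level was low in both groups and the check rests on few reads. The libraries held between 58241123 and 68229070 counts. Between the groups, 64.2% of the 20741 genes tested passed an adjusted p of 0.05, so a call for a single member is common in this comparison. Of 13 hepatocyte markers listed, 4 reached 1 FPKM in every NC library (FGA, FGB, FGG and SERPINA1) and 5 in every LINC00862 library (ALB, FGA, FGB, FGG and TF), and APOA1, APOA2 and APOH had too few reads to be tested. Albumin was counted 0, 0 and 7 times in NC and 423, 394 and 282 times in LINC00862. Of the 10 tested, 9 were higher in LINC00862 and SERPINA1 was lower. Their summed FPKM was 7.72 to 7.85 in NC and 1800 to 2210 in LINC00862, where 99.0% to 99.2% of it came from the 3 linked fibrinogen genes, and without these it was 1.15 to 1.79 and 14.7 to 20.9. Of 14 epithelial markers 11 were higher and 1 lower, and of 14 mesenchymal markers 1 was higher and 12 lower, with a summed FPKM of 973 to 998 in NC and 17.0 to 22.0 in LINC00862. Of 5 fetal liver and hepatoma markers tested 2 were higher and 2 lower, of 2 intestinal markers 1 was higher, and of 8 endothelial and blood markers 2 were higher (CD68 and CDH5), while HBB, which codes for beta-globin, had between 43583 and 71188 counts in every library. The part of these marker differences in the results below was not tested, and in such bulk samples fewer cells of a type and less RNA per cell cannot be told apart.

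Of the 66 members tested, 53 passed the test (80.3%, against 64.2% of all genes tested). In LINC00862, 36 members were higher (54.5%, against 34.4%) and 17 were lower (25.8%, against 29.8%). These shares of all genes are also the background for the counts of each step and list below. Of the 66 members tested, 43 were called with a fold change of at least 2 (65.2%, against 49.8%), and the FPKM of 55 did not overlap between the groups (83.3%, against 71.1%). FPKM is the number of fragments of a gene scaled to the length of its transcript and to the depth of the library. The median log2 fold change was 0.81 over the members tested and 0.11 over all genes tested. In every library of the group, 27 members reached 1 FPKM in NC and 34 did so in LINC00862, with 20 in both, 7 in NC alone and 14 in LINC00862 alone. The 7 in NC alone were ST3GAL2, ST6GALNAC5, B3GNT9, FUT11, FUT8, A4GALT and B4GALT6, and the 14 in LINC00862 alone were ST3GAL1, ST3GAL6, GCNT3, B3GNT3, B3GNT5, B3GNTL1, FUT1, FUT2, FUT3, GALNT12, GALNT14, GALNT3, GALNT4 and GALNT5. The same count was not made over all genes, so these numbers have no background. Some members lie near the cutoff: B4GALT6 did not pass the test (edgeR adjusted p = 0.293), and B3GNT5 had a mean of 1.02 FPKM in NC. The summed FPKM of all 79 members lay at 176 to 231 in NC and 214 to 271 in LINC00862, ranges that overlap. Among members with a mean of at least 1 FPKM, the median coefficient of variation between replicates was 20.8% in NC (29 members) and 15.9% in LINC00862 (34 members), and NC replicate 1 was the highest of its group for 18 of the 29.

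**Figure D1:**
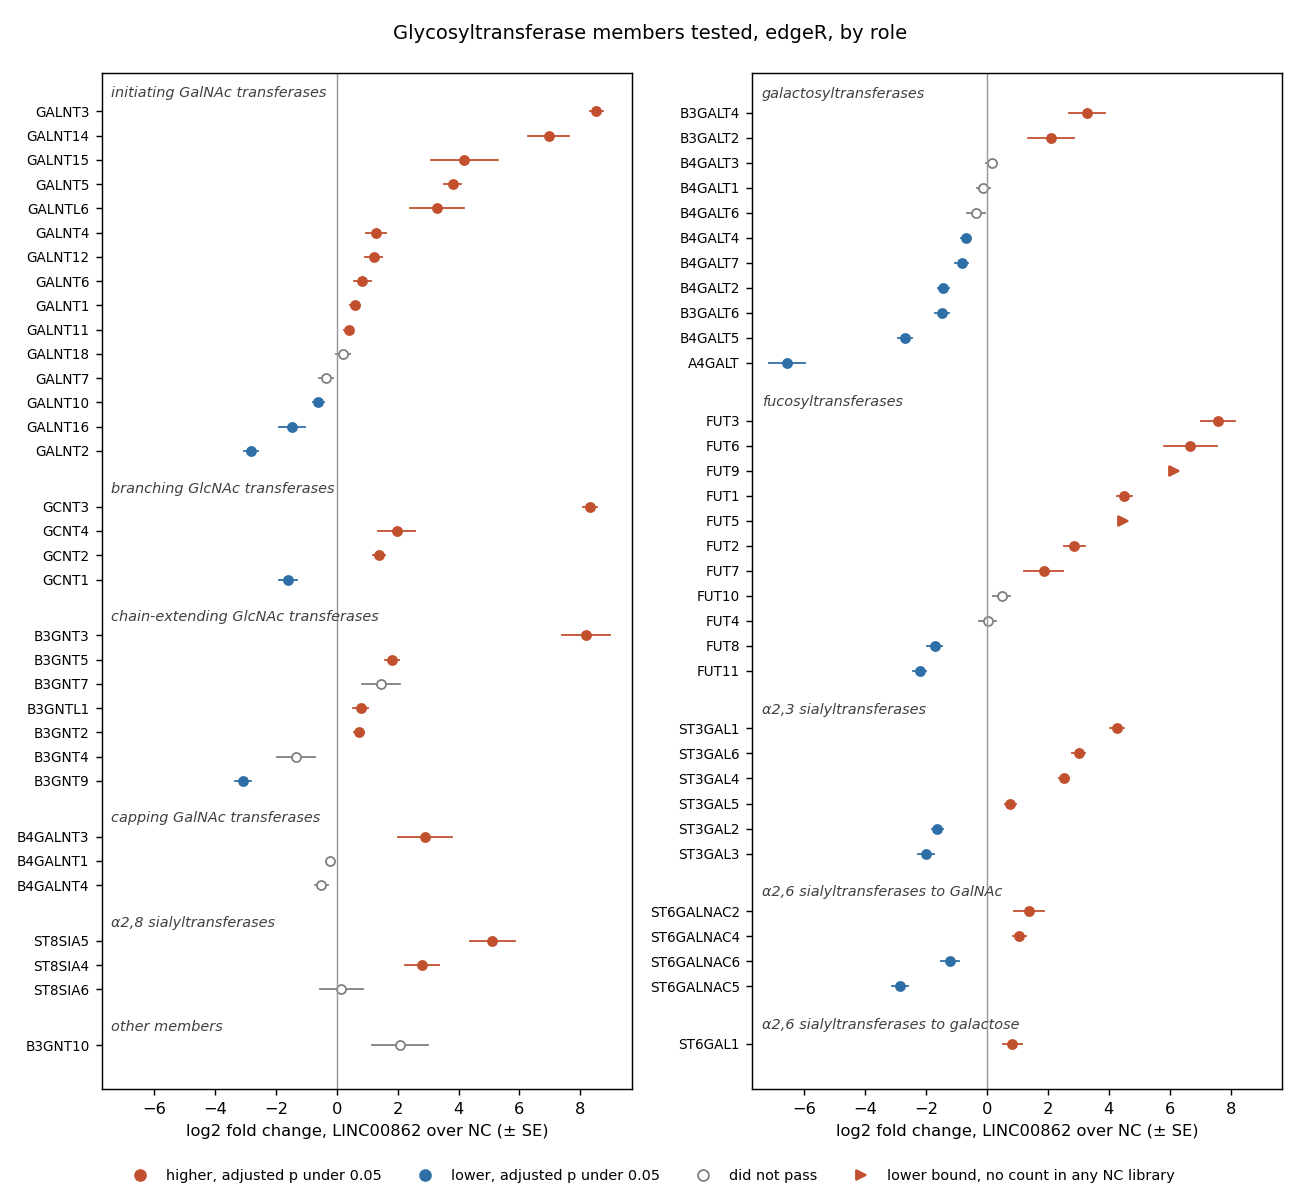
Log2 fold change of each of the 66 members tested, LINC00862 over NC, with its standard error (edgeR), grouped by the step the enzyme carries out. Filled circles passed an adjusted p of 0.05, open circles did not, and triangles mark FUT5 and FUT9, which had no count in NC and stand at their lower bound. The galactosyltransferases hold 6 of the 17 members that were lower.

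In the initiating step the leading isoenzyme differed between the groups. Of the 18 polypeptide GalNAc transferases 15 were tested, 10 of them were higher in LINC00862, 3 were lower and GALNT7 and GALNT18 did not pass the test. GALNT2 (chr1:230057990-230282122, plus strand, hg38) is among the most widely expressed of these enzymes and glycosylates secreted lipid regulators. Its FPKM was 27.6, 17.0 and 21.4 in the NC libraries and 3.13, 3.38 and 1.82 in the LINC00862 libraries. It led the family in every NC library and fell by 2.82 ± 0.24 on the log2 scale (SE, 7.04-fold, edgeR adjusted p = 9.36e-06). GALNT3 (chr2:165747588-165794650, minus strand), known for protecting the hormone FGF23 from cleavage, was at 0.0806, 0.0838 and 0.104 FPKM in NC and at 30.5, 30.9 and 29.4 FPKM in LINC00862. The 2 groups were far apart, and it rose 368-fold (log2 8.52 ± 0.21, edgeR adjusted p = 2.63e-08), to the highest mean FPKM of any member in LINC00862, where GCNT3 and ST3GAL4 had ranges that overlapped with it.

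Shares of the summed FPKM of the family set the isoenzymes side by side within a library. GALNT2 supplied 40.5% ± 3.87 of it in NC and 3.95% ± 0.951 in LINC00862, and GALNT3 0.171% ± 0.0485 and 43.7% ± 2.24 (SD, n = 3 each). GALNT7, which adds GalNAc beside an existing one, had the next largest share in NC, 23.9% ± 4.86, and 13.0% ± 1.57 in LINC00862. Its own FPKM ranges overlapped between the groups, and its log2 fold change of -0.35 ± 0.23 did not pass the test (edgeR adjusted p = 0.204). The summed FPKM of the whole family was 46.5 to 68 in NC and 63.7 to 73.6 in LINC00862, so the totals overlapped. GALNT1, GALNT2, GALNT7, GALNT10, GALNT11 and GALNT18 reached 1 FPKM in every library of both groups.

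GALNT14, linked in earlier work to glycosylation of death receptors, had FPKM values of 0, 0.0624 and 0.0511 in NC and 5.06, 5.04 and 3.37 in LINC00862. It rose by 6.96 ± 0.68 on the log2 scale (edgeR adjusted p = 2.47e-05), and by 6.35 without NC replicate 1, the library with no read. GALNT5 went from 0.263, 0.212 and 0.117 FPKM to 2.67, 2.72 and 1.97 FPKM and rose by 3.81 ± 0.28 on the log2 scale (edgeR adjusted p = 4.14e-06). No value of either gene in NC reached its lowest in LINC00862. GALNT10, which like GALNT7 prefers peptides that already carry GalNAc, was the third of the NC shares at 10.1% ± 0.5 and fell by 0.60 ± 0.18 (edgeR adjusted p = 0.0169). GALNT1, GALNT4, GALNT6, GALNT11, GALNT12, GALNT15 and GALNTL6 also passed as higher and GALNT16 as lower, at log2 fold changes from -1.48 to 4.19, and GALNT9, GALNT13 and GALNT17 had too few reads to be tested. Of the 100-base windows of the GALNT4 transcript, 93.11% also lie in the POC1B-GALNT4 readthrough, so its reads can be shared.

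The promoter windows of GALNT2 and GALNT3 are shown because these genes held the leading place in opposite groups. Each window runs from 250 bases before to 50 bases after the RefSeq start (GRCh38.p14), read along the gene's own strand. Capitals mark the E-box CACCTG on either strand (CAGGTG is the same site read from the other strand), the only motif searched. Windows were matched for 56 of the 79 members (70.9%), and 11 of these (19.6%) hold at least 1 E-box and 4 hold 2 or more. Among the 35116 promoters of the same length in the table, 20.6% hold at least 1 and 3.49% hold 2 or more. With under 80% of the members matched, a comparison of motif or base content over the set is void, and none is drawn from these shares.
GALNT2 (chr1:230066988-230067287, plus strand): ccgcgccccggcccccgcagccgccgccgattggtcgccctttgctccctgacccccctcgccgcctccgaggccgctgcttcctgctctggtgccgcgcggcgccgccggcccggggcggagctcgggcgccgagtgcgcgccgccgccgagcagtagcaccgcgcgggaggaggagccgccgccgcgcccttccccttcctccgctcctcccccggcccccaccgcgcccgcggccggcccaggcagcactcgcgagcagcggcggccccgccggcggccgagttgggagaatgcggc
GALNT3 (chr2:165794198-165794497, minus strand): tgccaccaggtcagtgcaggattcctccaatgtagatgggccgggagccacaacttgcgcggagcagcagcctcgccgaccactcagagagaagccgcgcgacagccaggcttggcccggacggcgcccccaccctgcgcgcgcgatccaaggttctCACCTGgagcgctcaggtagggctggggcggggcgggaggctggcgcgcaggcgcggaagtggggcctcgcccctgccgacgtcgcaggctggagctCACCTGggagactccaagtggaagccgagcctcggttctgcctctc
The GALNT3 window holds 2 E-boxes and the GALNT2 window holds none. The RefSeq start of GALNT2 lies 9248 bases from the start given in the deposited table, and that of GALNT3 lies 403 bases from it, so the GALNT2 window need not be the start in use in these cells. A match is a string of letters and no measurement of binding.

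In the branching step the leading isoenzyme also differed between the groups, and the summed FPKM did too. All 4 tested members of the 5 branching GlcNAc transferases were called, 3 higher and 1 lower. GCNT1 (chr9:76419850-76651203, plus strand) makes the core 2 branch on O-glycans. Its FPKM was 1.45, 0.906 and 0.929 in NC and 0.255, 0.275 and 0.415 in LINC00862, and it fell by 1.59 ± 0.30 on the log2 scale (edgeR adjusted p = 0.00127). GCNT3 (chr15:59594875-59622723, plus strand), the mucin-type enzyme of the gut and airway that makes core 2, core 4 and I branches, was at 0.0931, 0.0982 and 0.106 FPKM in NC and at 32.5, 31.5 and 21.1 FPKM in LINC00862. It rose 317-fold (log2 8.31 ± 0.24, edgeR adjusted p = 3.15e-08), with no overlap. GCNT2, which makes the I blood group branch, went from 2.78, 1.71 and 1.83 FPKM to 4.85, 5.69 and 3.97 FPKM, a rise of 1.38 ± 0.19 on the log2 scale (edgeR adjusted p = 0.000183).

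GCNT2 and GCNT1 together made up nearly all of the branching FPKM in NC, at 62.8% ± 0.758 and 32.7% ± 0.279, and GCNT3 held 3.11% ± 0.880. In LINC00862, GCNT3 held 84.2% ± 1.86, GCNT2 14.5% ± 1.44 and GCNT1 1.01% ± 0.533 (SD, n = 3). The summed FPKM of the 5 genes was 2.76 to 4.43 in NC and 25.5 to 37.7 in LINC00862. GCNT1 overlaps PRUNE2 on the opposite strand, which had 9117 counts over the 6 libraries against 2625 for GCNT1 and fell by 5.01 on the log2 scale. Strand was marked when the libraries were made, but the sources used here do not say whether reads were counted by strand, so the 2 genes may share reads. GCNT4 was also higher at a mean of 0.0361 FPKM, and GCNT7 had too few reads.

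The GCNT3 window is shown as that of the largest rise among the branching enzymes.
GCNT3 (chr15:59611533-59611832, plus strand): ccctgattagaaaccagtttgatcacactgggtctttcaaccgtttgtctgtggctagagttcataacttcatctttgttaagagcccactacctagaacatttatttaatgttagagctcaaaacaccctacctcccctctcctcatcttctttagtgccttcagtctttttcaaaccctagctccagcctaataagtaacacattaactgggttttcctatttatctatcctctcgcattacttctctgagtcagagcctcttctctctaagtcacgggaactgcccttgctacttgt
It holds no E-box, and neither do those of B3GNT3, ST3GAL4 and ST3GAL6, which also rose. The RefSeq start used for GCNT3 lies 16908 bases from the deposited start.

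**Figure D2:**
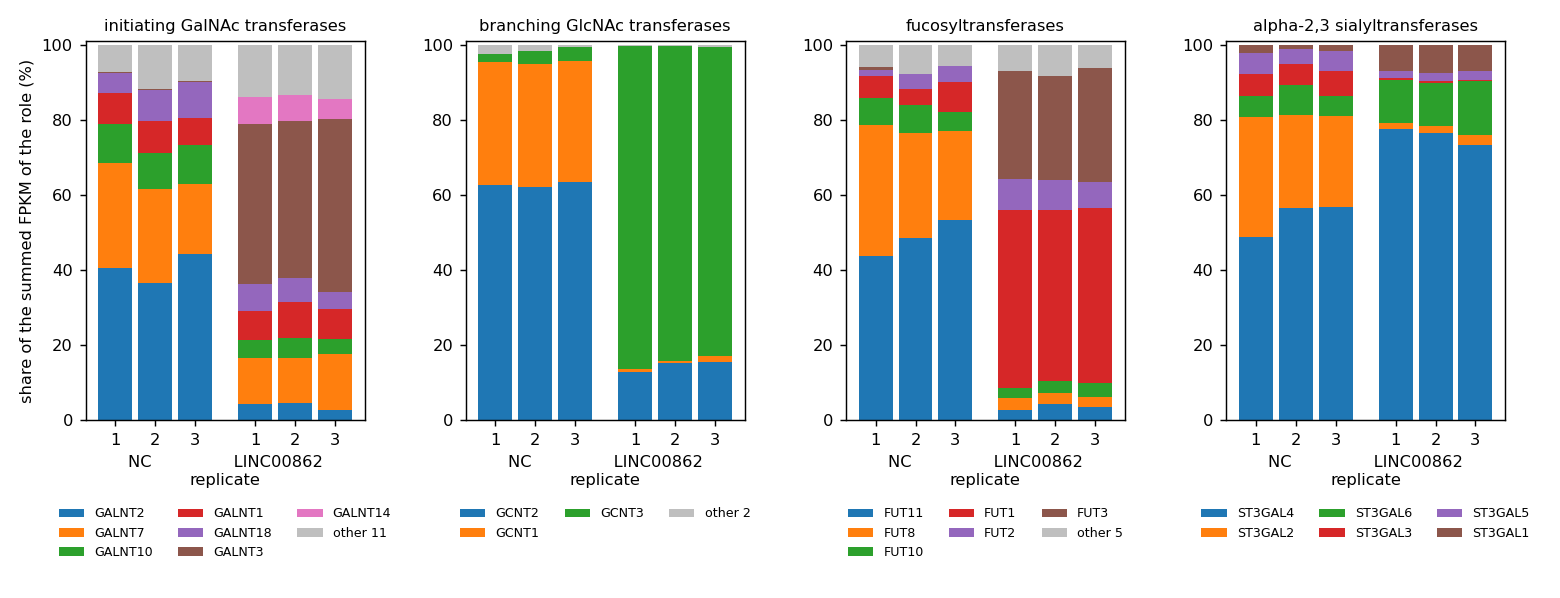
Share of each isoenzyme (percent) in the summed FPKM of its step, for each of the 3 NC and 3 LINC00862 libraries, in 4 steps. GALNT2 led its step in NC and GALNT3 in LINC00862, GCNT2 and GCNT3 likewise, and FUT11 and FUT1 likewise, while ST3GAL4 leads its step in both groups.

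In chain extension the leading isoenzyme was the same in both groups. Of 9 chain-extending GlcNAc transferases 7 were tested, of which 4 were higher, 1 was lower, and B3GNT4 and B3GNT7 did not pass. B3GNT2, the principal maker of polylactosamine, had the highest FPKM of the set in both groups, with 7.96, 5.47 and 5.96 in NC and 9.54, 9.88 and 8.98 in LINC00862. It was higher by 0.73 ± 0.15 on the log2 scale (edgeR adjusted p = 0.00231), and its share was 44.2% ± 3.33 in NC and 42.8% ± 2.90 in LINC00862. B3GNT3 (chr19:17794828-17812233, plus strand), which lengthens core 1 glycans, had 15, 0 and 0 counts in NC and 1748, 1440 and 973 in LINC00862. Its fitted log2 fold change was 8.18 ± 0.79 (edgeR adjusted p = 2.28e-05). That value rests on the 15 reads of NC replicate 1: without this library NC had no read, and against a floor of 3 counts over the remaining NC libraries the gene was at least 950-fold higher.

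B3GNT9 moved the other way. Its FPKM was 5.97, 5.25 and 5.11 in NC and 0.749, 0.519 and 0.434 in LINC00862, and it fell by 3.08 ± 0.25 on the log2 scale (edgeR adjusted p = 7.08e-06), from 37.6% ± 3.70 of the FPKM of the set to 2.54% ± 0.556. B3GNT5, which starts the lacto-series glycolipids, went from 1.48, 0.747 and 0.833 FPKM to 2.93, 3.27 and 3.20 FPKM and rose by 1.81 ± 0.23 on the log2 scale (edgeR adjusted p = 0.00014). MCF2L2, on the opposite strand, holds 23.48% of the 100-base windows of B3GNT5 and rose too, by 4.65 on the log2 scale, from far fewer reads. B3GNTL1 was higher by 0.79 ± 0.24 (edgeR adjusted p = 0.0184), beside TBCD on the opposite strand with 48661 counts against its 3063. B3GNT6 and B3GNT8 had too few reads to be tested. B3GNT10, the member outside every step, was at 0.112 ± 0.106 FPKM in NC and 0.416 ± 0.137 FPKM in LINC00862 (SD, n = 3) and did not pass.

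**Figure D3:**
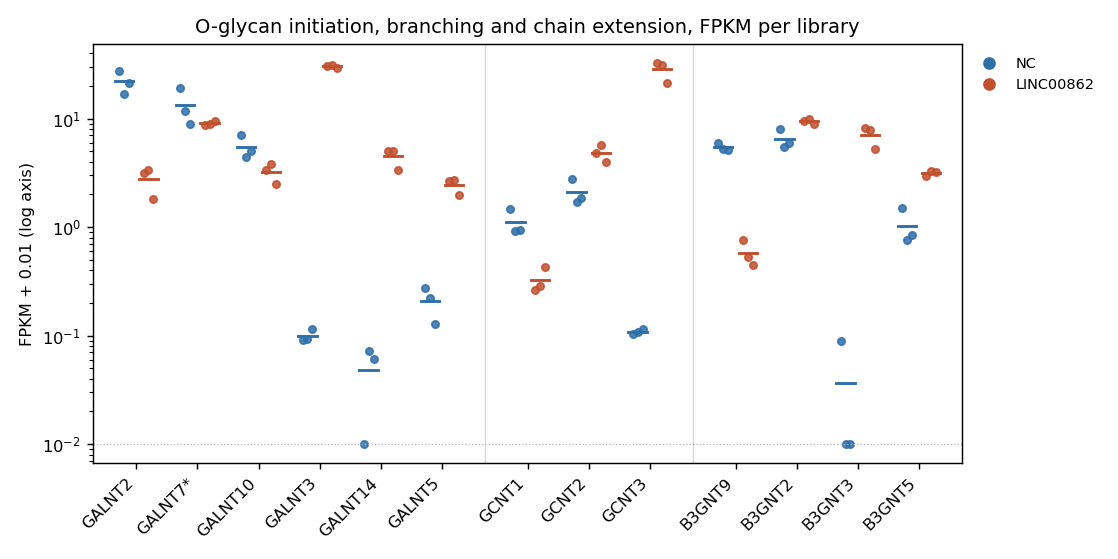
FPKM plus 0.01 (log axis) of members of the initiating, branching and chain-extending steps, 1 point per library with a bar at the mean of the 3 libraries of each group. GALNT3, GCNT3 and B3GNT3 lie at or under 0.106 FPKM in every NC library and at or above 5.23 FPKM in every LINC00862 library, and an asterisk marks a gene that did not pass the test.

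The galactosyltransferases were the step where more members were lower than higher. Of 13 listed 11 were tested, and 6 were lower (54.5%, against 29.8% of all genes tested) and 3 did not pass. The 2 that were higher (18.2%, against 34.4%) were B3GALT2 and B3GALT4, at mean FPKM of 0.145 and 0.801 in LINC00862. The FPKM of B3GALT2 overlapped between the groups. CDC73 lies on its opposite strand with 15145 counts against 138, and WDR46 on that of B3GALT4 with 27713 against 441. Of the 100-base windows, 2.05% of B3GALT2 and 0.0% of B3GALT4 also occur in another gene. The summed FPKM of the step was 70.2 to 90.6 in NC and 31.2 to 42.7 in LINC00862. A4GALT (chr22:42692121-42721298, minus strand) makes globotriaosylceramide, the Pk antigen and Shiga toxin receptor. Its counts were 986, 916 and 1356 in NC and 4, 5 and 22 in LINC00862. It fell by 6.57 ± 0.60 on the log2 scale (95.1-fold, edgeR adjusted p = 1.63e-05), the deepest fall among the members tested. Without LINC00862 replicate 3, the library with 22 reads, the log2 fold change was -7.86.

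B4GALT5, the main lactosylceramide synthase, was at 25.1, 12.6 and 15.1 FPKM in NC and at 2.35, 2.79 and 2.04 FPKM in LINC00862. It fell by 2.69 ± 0.23 on the log2 scale (edgeR adjusted p = 1.15e-05). B4GALT6, the other lactosylceramide synthase, had a mean of 1.33 ± 0.450 FPKM in NC and 0.897 ± 0.186 FPKM in LINC00862 (SD, n = 3) and did not pass (edgeR adjusted p = 0.293). B4GALT2, a lactosamine synthase, had the highest mean in NC, with 14.8, 16.9 and 21.9 FPKM against 6.28, 5.78 and 5.71 FPKM in LINC00862, and fell by 1.43 ± 0.19 on the log2 scale (edgeR adjusted p = 0.000197). Its neighbours in the order of NC levels, B4GALT5 and B4GALT1, had ranges that overlapped with it.

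B3GALT6 and B4GALT7, which build the linker that joins glycosaminoglycans to proteoglycans, were both lower. B3GALT6 went from 8.50, 8.34 and 12 FPKM to 3.65, 3.08 and 2.60 FPKM (log2 fold change -1.47 ± 0.22, edgeR adjusted p = 0.000308), and B4GALT7 from a mean of 3.98 to 1.99 FPKM. B4GALT1, a lactosamine synthase with the highest mean of the step in LINC00862, had 20.2, 11 and 13.8 FPKM in NC and 13.3, 14.6 and 8.77 FPKM in LINC00862. The ranges overlapped, and its log2 fold change of -0.12 ± 0.22 did not pass (edgeR adjusted p = 0.648) and was 0.09 under upper quartile scaling. B4GALT4 was lower and B4GALT3 did not pass. Of the 7 numbered B4GALT genes 4 were called, all lower, where 64.2% of all genes tested were called and 29.8% were called lower.

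**Figure D4:**
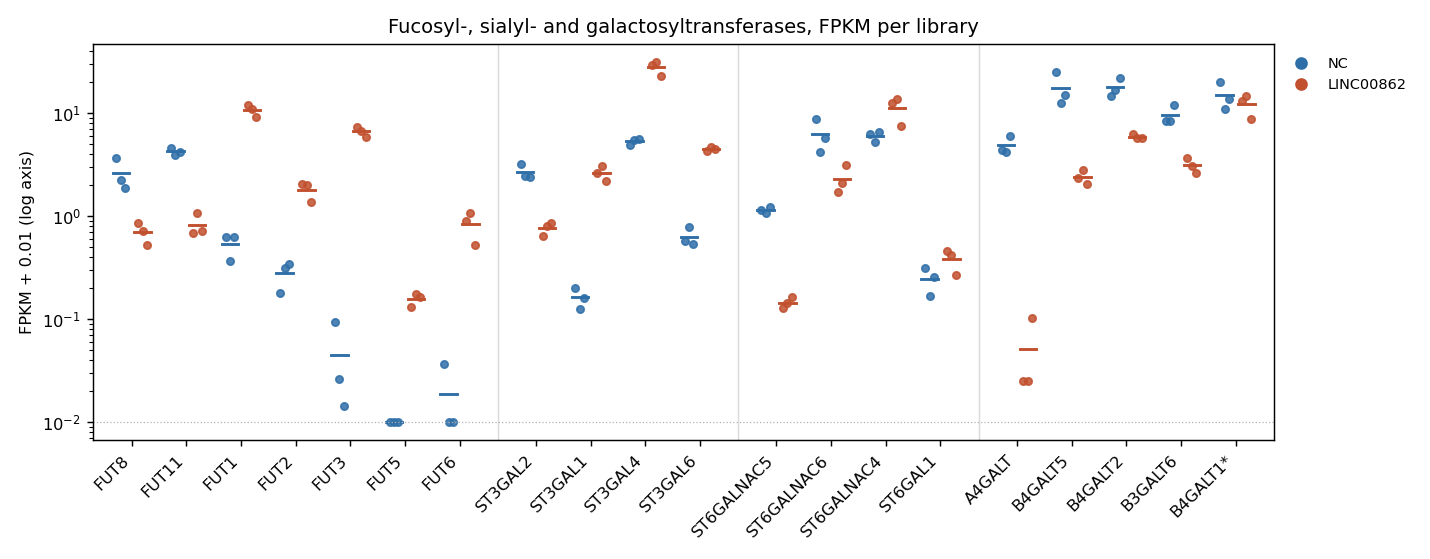
FPKM plus 0.01 (log axis) of fucosyl-, sialyl- and galactosyltransferases, 1 point per library with a bar at the mean of each group. FUT1, FUT2, FUT3 and FUT6 are higher and FUT8 and FUT11 lower in all 3 LINC00862 libraries, FUT5 has no read in NC, and an asterisk marks a gene that did not pass the test.

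Among the fucosyltransferases, the enzyme of the glycan core was lower in LINC00862 and most enzymes of the outer chain were higher. All 11 fucosyltransferases were tested, and 7 were higher, 2 lower, and FUT4 and FUT10 did not pass. FUT8 adds the core fucose of N-glycans. Its FPKM was 3.68, 2.25 and 1.89 in NC and 0.845, 0.710 and 0.520 in LINC00862, and it fell by 1.72 ± 0.26 on the log2 scale (edgeR adjusted p = 0.000375). FUT11 had the highest mean in NC, with 4.63, 3.92 and 4.22 FPKM against 0.674, 1.06 and 0.706 FPKM in LINC00862. It fell by 2.21 ± 0.21 on the log2 scale (edgeR adjusted p = 2.01e-05). An opposite-strand gene, AC022400, covers part of FUT11 with 4118 counts against 4997 and did not pass the test.

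FUT1 and FUT2, the alpha-1,2 enzymes that make the H antigen, lie 42059 bases apart on chromosome 19. FUT1 (chr19:48748011-48755390, minus strand) was at 0.622, 0.360 and 0.619 FPKM in NC and at 12.1, 11.1 and 9.15 FPKM in LINC00862. It rose 22.7-fold (log2 4.51 ± 0.24, edgeR adjusted p = 5.92e-07) and held 46.6% ± 1.09 of the FPKM of the step in LINC00862 against 6.07% ± 1.68 in NC. FUT2 (chr19:48695971-48705951, plus strand) went from 0.171, 0.304 and 0.337 FPKM to 2.07, 1.99 and 1.37 FPKM and rose by 2.87 ± 0.35 on the log2 scale (edgeR adjusted p = 0.000103). Neither gene overlapped between the groups.

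FUT6, FUT3 and FUT5 form a tandem family elsewhere on chromosome 19, with 3170 bases between FUT6 and FUT3 and 14351 bases between FUT3 and FUT5. FUT3 (chr19:5842888-5851474, minus strand) is the Lewis enzyme, and FUT5 and FUT6 add alpha-1,3 fucose to lactosamine. FUT3 had 18, 5 and 1 counts in NC and 1749, 1381 and 1240 in LINC00862, and its log2 fold change was 7.59 ± 0.55 (edgeR adjusted p = 3.86e-06), or 8.90 without NC replicate 1. FUT6 had 8, 0 and 0 counts in NC and 312, 324 and 161 in LINC00862, a log2 fold change of 6.67 ± 0.87 (edgeR adjusted p = 0.000155), and it was at least 182-fold higher against 3 counts over the other NC libraries when NC replicate 1 was left out. FUT5 had no count in any NC library and 19, 22 and 21 counts in LINC00862, which is at least 22.1-fold higher against 3 counts over the NC group (edgeR adjusted p = 0.00079).

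The 3 genes are close in sequence, so reads could be split among them. Of the 100-base windows of the longest coding transcript, 10.04% of FUT3, 8.22% of FUT6 and 81.75% of FUT5 also occur in another gene, and for FUT5 most of them lie in AC024592, a gene that overlaps it. The AC024592 gene on the same strand as FUT5 had more counts than FUT5. It passed the test as lower in LINC00862, at a log2 fold change of -1.73, so reads of FUT5 can be shared. How reads were divided between FUT5 and AC024592 was not tested, and the bound for FUT5 does not allow for it. FUT9 and FUT7, which complete Lewis x and sialyl-Lewis x, passed at low levels. FUT9 had no count in NC and 83, 80 and 36 counts in LINC00862, at least 70.8-fold higher against 3 counts over the NC group. FUT7 had 3 to 8 counts in NC and 15 to 21 in LINC00862. Of the FUT7 windows 56.14% also occur in other genes, among them C9orf139 on the opposite strand. C9orf139 had 162 counts against 68 for FUT7 and did not pass the test, so reads of FUT7 can be shared too. With FUT5 and FUT9 set to their bounds, the median log2 fold change of the members tested stayed at 0.81.

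The windows of FUT1 and FUT3 are shown because they stand for the 2 fucosyltransferase clusters, in each of which the members moved together, with E-boxes in capitals as above.
FUT1 (chr19:48755309-48755608, minus strand): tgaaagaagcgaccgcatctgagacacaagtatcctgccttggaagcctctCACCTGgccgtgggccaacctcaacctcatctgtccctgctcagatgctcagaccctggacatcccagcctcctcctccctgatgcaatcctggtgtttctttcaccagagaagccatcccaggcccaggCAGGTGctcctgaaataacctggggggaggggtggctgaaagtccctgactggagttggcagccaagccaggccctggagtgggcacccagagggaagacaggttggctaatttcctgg
FUT3 (chr19:5851400-5851699, minus strand): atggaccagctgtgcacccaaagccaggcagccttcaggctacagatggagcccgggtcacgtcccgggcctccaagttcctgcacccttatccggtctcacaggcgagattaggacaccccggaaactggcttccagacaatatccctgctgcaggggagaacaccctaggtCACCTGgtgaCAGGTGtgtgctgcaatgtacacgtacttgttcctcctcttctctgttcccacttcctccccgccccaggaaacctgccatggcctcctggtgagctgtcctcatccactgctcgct
Both windows hold 2 E-boxes. So does that of FUT2, while that of FUT6 holds none, that of FUT8, which fell, holds 1, and FUT5 was not matched.

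The RNA of alpha-2,3 sialyltransferases was higher in sum and differed in make-up. All 6 members were tested and called, 4 higher and 2 lower, and the summed FPKM was 9.75 to 10.1 in NC and 31.3 to 41.1 in LINC00862. ST3GAL4 (chr11:126355640-126440344, plus strand), which caps lactosamine, led the step in both groups. Its FPKM was 4.91, 5.51 and 5.65 in NC and 29.3, 31.5 and 23.0 in LINC00862, a rise of 2.54 ± 0.16 on the log2 scale (edgeR adjusted p = 1.91e-06), and its share went from 54.1% ± 4.54 to 75.9% ± 2.31. KIRREL3, on the opposite strand, fell by 6.04 on the log2 scale.

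ST3GAL1 (chr8:133454848-133571940, minus strand), which caps core 1 and so closes the T antigen, was at 0.192, 0.116 and 0.15 FPKM in NC and at 2.61, 3.09 and 2.21 FPKM in LINC00862. It rose 19.3-fold (log2 4.27 ± 0.22, edgeR adjusted p = 5.71e-07). ST3GAL2, which also acts on the core 1 disaccharide, went the other way, from 3.22, 2.43 and 2.41 FPKM to 0.629, 0.798 and 0.854 FPKM, and fell by 1.63 ± 0.19 on the log2 scale (edgeR adjusted p = 7.85e-05). ST3GAL6 rose from 0.559, 0.780 and 0.529 FPKM to 4.28, 4.74 and 4.53 FPKM (log2 3.01 ± 0.21, edgeR adjusted p = 3.49e-06), while DCBLD2 on the opposite strand, with 82496 counts against 6748, fell by 4.20. ST3GAL5, the GM3 synthase, was higher and ST3GAL3 was lower, each under 1 FPKM in both groups. ST3GAL3 and B4GALT2 lie 47777 bases apart on chromosome 1, and both were lower.

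The alpha-2,6 enzymes that act on GalNAc divided evenly, with 2 of 4 tested higher and 2 lower, and their summed FPKM overlapped between the groups (10.6 to 16.7 in NC, 11.6 to 17.0 in LINC00862). ST6GALNAC4 and ST6GALNAC6 lie 2537 bases apart on chromosome 9 and moved in opposite directions. ST6GALNAC4, which makes disialyl-T, was at 6.25, 5.22 and 6.57 FPKM in NC and at 12.6, 13.8 and 7.47 FPKM in LINC00862, a rise of 1.06 ± 0.21 on the log2 scale (edgeR adjusted p = 0.00178). ST6GALNAC6, which acts on gangliosides, was at 8.73, 4.18 and 5.76 FPKM in NC and at 1.72, 2.08 and 3.13 FPKM in LINC00862 and fell by 1.22 ± 0.30 (edgeR adjusted p = 0.00644). Almost all of its windows, 96.83%, also lie in AL157935, an overlapping gene that did not pass the test, so its reads can be shared. ST6GALNAC5, another ganglioside enzyme, went from 1.13, 1.07 and 1.21 FPKM to 0.119, 0.134 and 0.153 FPKM and fell by 2.86 ± 0.27 on the log2 scale (edgeR adjusted p = 2.13e-05). ST6GALNAC2 passed as higher under 1 FPKM, and ST6GALNAC3 had too few reads. Of the ST6GALNAC2 windows 43.86% also occur in other genes, most of them in AC015802, so its reads can be shared. An AC015802 gene on the same strand had 1816 counts against 714 for ST6GALNAC2 and did not pass the test.

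ST6GAL1, the enzyme that puts alpha-2,6 sialic acid on N-glycans and is abundant in liver, was at 0.307, 0.160 and 0.246 FPKM in NC and at 0.451, 0.409 and 0.259 FPKM in LINC00862. The ranges overlapped, and its log2 fold change of 0.83 ± 0.32 passed by a narrow margin (edgeR adjusted p = 0.0479) that was lost in 10 of the alternative fits. Of the alpha-2,8 enzymes 3 of 6 were tested and 2 passed as higher, none above 0.322 FPKM in a library. ST8SIA5, a ganglioside enzyme, had 12, 0 and 15 counts in NC and 294, 335 and 243 in LINC00862 (log2 fold change 5.10 ± 0.74, edgeR adjusted p = 0.000292, and 5.72 without NC replicate 3). ST8SIA4, a polysialic acid synthase, had 4 to 12 counts in NC and 38 to 87 in LINC00862. ST8SIA6 did not pass, and ST8SIA1, ST8SIA2 and ST8SIA3 had too few reads.

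Of the 3 GalNAc-capping enzymes tested, 1 passed. B4GALNT4 and B4GALNT1 supplied nearly all of the FPKM of this step in both groups, and neither passed. B4GALNT4, which makes the LacdiNAc cap, was at 7.52, 10.3 and 10.5 FPKM in NC and at 4.99, 6.14 and 6.54 FPKM in LINC00862. Its FPKM did not overlap, but its log2 fold change in counts was -0.51 ± 0.21 (edgeR adjusted p = 0.0603). B4GALNT1, the GM2 and GD2 synthase, was at 5.03 ± 0.677 and 3.81 ± 0.255 FPKM (SD, n = 3; log2 fold change -0.22 ± 0.13, edgeR adjusted p = 0.168). B4GALNT3 was higher with at most 26 counts in a library, and B4GALNT2 had too few reads. The 13 members not tested, B3GALT1 and B3GALT5 among them, had at most 39 counts in any library.

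The enzymes that feed and flank these steps were counted from 5 lists of 61 genes found in the table. Of 55 tested, 39 passed (70.9%, against 64.2% of all genes), 20 higher (36.4%, against 34.4%) and 19 lower (34.5%, against 29.8%). Among the makers of sugar donors 8 were higher and 6 lower of 18. GFPT1 and GFPT2 both catalyse the entry step of hexosamine synthesis. GFPT1 went from a mean of 7.20 ± 1.70 to 83.5 ± 9.49 FPKM and rose by 3.72 ± 0.18 on the log2 scale (edgeR adjusted p = 3.68e-07), while GFPT2 went from 2.57 ± 0.112 to 0.106 ± 0.0509 FPKM (SD, n = 3) and fell by 4.40 ± 0.34 (edgeR adjusted p = 6.2e-06). The Golgi transporters of sugar donors had no member higher and 4 of 8 lower, among them SLC35B4 (log2 fold change -1.36) and SLC35D2 (-0.78). That is 50.0% called, against 64.2% of all genes tested, and 50.0% lower, against 29.8%.

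Of the core synthases and other early steps 6 were higher and 5 lower of 14. MGAT4A, which branches N-glycans, rose by 2.67 ± 0.23 on the log2 scale (edgeR adjusted p = 1.09e-05), from a mean of 0.471 to 2.62 FPKM. MGAT4B, of the same family and with more RNA, went the other way, from a mean of 46.3 to 25.8 FPKM (log2 fold change -0.68 ± 0.16, edgeR adjusted p = 0.00417). UGCG, which makes glucosylceramide, the substrate of lactosylceramide synthases, had a mean of 38.3 ± 7.5 FPKM in NC and 6.54 ± 0.292 FPKM in LINC00862 (SD, n = 3) and fell by 2.36 ± 0.15 (edgeR adjusted p = 1.74e-06). UGCG, B4GALT5 and A4GALT carry out successive steps of globoside synthesis, and all 3 were lower in every LINC00862 library than in any NC library. B3GALNT1, the step after A4GALT, went the other way, from a mean of 0.507 to 0.962 FPKM (log2 fold change 1.11 ± 0.23, edgeR adjusted p = 0.00245). Of all genes tested, 71.1% had FPKM that did not overlap between the groups. Of the sulfotransferases 2 were higher and 2 lower of 6, and CHST10, which makes the HNK-1 cap, fell by 3.21 ± 0.24 (edgeR adjusted p = 5.18e-06). Of the glycosidases that remove caps 4 were higher and 2 lower of 9, with FUCA2, a fucosidase, at -0.83 and HEXA, a hexosaminidase subunit, at 0.73 on the log2 scale.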

How the data were processed

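Polyadenylated RNA of HCCLM3 cells was sequenced in 3 NC and 3 LINC00862 libraries as strand-marked, paired reads with molecular identifiers. The authors deposited, for each gene and library, a read count without normalization and an FPKM value scaled by transcript length and mapped fragments. The submitters' processing notes name cutadapt 1.9, HISAT2 2.0.4, UMI-tools, StringTie 1.3.4d, DESeq2, edgeR and the build hg38, with no order. Whether identifiers were collapsed or strand was used in counting is not given in the sources used here. Groups and replicate numbers came from the sample titles.

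Counts were tested with edgeR 4.0.16 in R 4.3.3 (filterByExpr, TMM scaling, quasi-likelihood test, two-sided, Benjamini-Hochberg adjustment over all 20741 genes tested, threshold 0.05), after a check on simulated counts. SE values derive from the test statistic. FPKM served for levels and shares. Folds against a group without counts used a floor of 3 counts over that group, which covers counting error only. An exact permutation test of 3 against 3 libraries cannot give a p below 0.1, so none was run. Shared sequence was the share of 100-base windows of the longest coding GENCODE 29 transcript found in transcripts of other genes. Tables and plots used Python 3.11.15, pandas 2.3.3 and matplotlib 3.10.9.

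The members, steps, pathway lists and marker lists were chosen with earlier results of these data known. Within each step the text names, among called members with a mean of at least 1 FPKM in a group, the 3 largest rises and 3 largest falls, and in each group the member with the highest mean. The tandem FUT3, FUT5 and FUT6 are named together, and each pathway list gives up to 2 called genes, those with the largest changes among genes with a mean of at least 1 FPKM in a group. MGAT4B and B3GALNT1 are named besides, as genes that went the other way. The other members are given by counts, ranges or verdicts. Results were recomputed with library size as the only scaling, with DESeq2 1.42.0, with each library left out in turn, with upper quartiles, with a replicate block, with every gene of at least 1 count, by limma-trend (3.58.1) of log2 FPKM with 0.1 or 1 added, and with a false discovery rate of 0.01 and a test against a fold of 2. No pair of replicates differed by as little as sampling noise. Protein sequences were not analysed here.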

Additional observations from a re-analysis of the deposited data

Results flagged for a closer look

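ST6GALNAC1, which makes the sialyl-Tn antigen, matches the name pattern but its row in the table carries no protein-coding transcript, so it was left out of the members and of every count above. It had no count in the NC libraries and 34, 10 and 30 counts in the LINC00862 libraries, a mean of 0.0992 FPKM, and a signal in a row outside the comparison is what brought it here. Against a floor of 3 counts over the NC group it was at least 26.3-fold higher. GALNT8 was left out for the same reason, with 1 count in 1 LINC00862 library and none in the others.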

How the results depend on the processing

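The number of members called (53) was 54 under upper quartiles and under DESeq2, 49 under library size alone, when every gene of at least 1 count was kept and in both limma-trend fits, and 45 to 54 when each library was left out. A test against a fold of 2 called 34, of which 22 were higher. Of the members called, 43 had a fold of at least 2, against 22 by limma-trend with 1 added to FPKM, a scale that shrinks low values. The median log2 fold change of 0.81 was 1.19 when every gene of at least 1 count was kept, 0.64 under library size alone, 1.02 under upper quartiles, 0.50 and 0.13 by limma-trend with 0.1 or 1 added to FPKM, and 0.77 to 0.99 when each library was left out. The median of all genes moved with the scaling too, at -0.05 under library size alone, 0.11 under TMM, 0.16 under DESeq2 and 0.32 under upper quartiles. The pathway genes called (39) ranged from 34 to 41 over the alternatives run.

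Of the log2 fold changes of single genes named by the rule under the alternatives, 480 kept direction and call, 22 values of 6 genes lost the call (ST6GALNAC4, ST6GALNAC6, ST6GAL1, B3GNTL1, B3GNT2 and GALNT10), 10 values of 2 genes gained it (B4GALNT4 and B3GNT10) and 6 values of 2 uncalled genes changed sign. ST8SIA6 was at -0.03 under library size alone, -0.00234 by limma-trend with 1 added and -0.34 to 0.51 when each library was left out, against 0.15. B4GALT1 was at 0.09 under upper quartiles and -0.29 to 0.09 when each library was left out, against -0.12. The cause was not tested.

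With the replicate number as a block, 48 members were called, 30 higher and 18 lower, and 12098 of all genes. The labels do not say that a number marks a shared batch, and libraries of the same number deviated from their groups with correlations of -0.0489, -0.0254 and -0.00737, so the numbers were not used to pair libraries. FUT5 and FUT9, with no count in NC, are limited by depth to a lower bound, and the folds of FUT6 and B3GNT3 rest on 8 and 15 reads in 1 NC library.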
